A study of Mus musculus with 12 samples.

Results

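The genes that build and load MHC class II molecules were followed in splenic B cells of the mouse, with and without the RNA-binding protein Zfp36l1 and in 2 B cell subsets. The set held 10 genes, chosen by name and function with earlier results of these data known. They were the class II chains H2-Aa, H2-Ab1 and H2-Eb1, the peptide editor chains H2-DMa, H2-DMb1 and H2-DMb2, the H2-O chains H2-Oa and H2-Ob, the invariant chain Cd74 and the coactivator Ciita. All 10 were found among the 43629 genes of the deposited count table, and all 10 passed the filter on low counts in each of the 3 comparisons.

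RNA was sequenced from 12 libraries, 4 in each of 3 groups. Deficient marginal zone (MZ) B cells (replicates 1, 2, 7 and 8) had the genotype Zfp36l1fl/flERT2cre/+. Control MZ B cells (replicates 3, 4, 5 and 6) were ERT2cre/ERT2cre, and follicular (FO) B cells (replicates 3, 4, 7 and 8) were Zfp36l1fl/fl cre-. All samples carried the strain label Zfp36l1tm1.1Tnr. By the genotype labels, deficient and control MZ cells differed in 2 respects, the floxed allele and how many ERT2cre copies they carried, and FO cells carried the floxed allele without cre. The strain label names a targeted Zfp36l1 allele for control MZ cells too, and the labels do not settle whether these cells carried it. ERT2cre is a Cre recombinase fused to an oestrogen receptor domain, and the labels give neither the promoter that drives it nor an inducing treatment. Per the labels, B cells were enriched from spleen with a Miltenyi isolation kit and flow-sorted as B220+CD93+, with MZ cells CD21-high and CD23-negative and FO cells positive for CD21 and CD23. Mature MZ and FO B cells are usually described as CD93-negative, so the gate is given here as the labels have it; the Cd93 transcript stood at 0.176 to 1.56 CPM (scaled counts, defined with the depth) in deficient MZ, 0.455 to 1.07 CPM in control MZ and 17.4 to 23.1 CPM in FO libraries. The labels give no age or sex, and they do not say whether replicates were separate animals, so the p-values below measure only how far these samples scatter, and that scatter may be technical.

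MZ B cells sit at the border of the splenic follicle and respond quickly to blood-borne antigen, and FO B cells recirculate through follicles and receive help from T cells. In both, an α and a β chain pair to form a class II molecule, which is kept from binding peptide too early by the invariant chain CD74. The class II molecules of the mouse are H2-A and H2-E, and whether H2-E formed in these cells was not measured. In late endosomes proteases trim CD74 to the CLIP fragment, H2-DM removes CLIP and favours stably bound peptides, and H2-O, found mainly in B cells, restrains H2-DM. Ciita binds no DNA itself. It is recruited to class II promoters by the RFX complex, CREB and NF-Y, which sit on the X and Y elements upstream of these genes, and its presence governs their transcription.

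The 4 MZ libraries of each genotype and the 4 FO libraries held 28938453 to 40664963 counts. Levels are given as CPM, counts scaled by TMM over the 12 libraries and by library total, with the SD over 4 libraries. The design text gives a SMARTer kit, 5 ng of RNA and 100 bp paired reads for MZ cells, and a TruSeq Stranded mRNA kit with 100 bp single-end reads for FO cells. The extraction protocol names SMARTer kits for every sample. In every comparison of MZ with FO cells, the cell type, the kit, the read layout and the genotype cannot be told apart. Zfp36l1 itself stood at 22, 31.8, 28.1 and 37.5 CPM in deficient MZ, 116, 109.6, 118 and 126 CPM in control MZ and 369.5, 396, 352 and 361 CPM in FO libraries, and its log2 change in deficient against control MZ cells was −1.98 (SE 0.12, adjusted p = 4.18e-07) by edgeR's quasi-likelihood test; 55.9% of its exon bases lie under exons of the other strand. The 6 B cell markers summed to 14900.4 to 16799 CPM in deficient MZ, 13881 to 14839 in control MZ and 13175 to 14123 in FO libraries. The 6 MZ markers summed to 6152 to 6708, 7099 to 7441 and 1376 to 1735 CPM in the same order of groups, and the 6 FO markers to 1749.8 to 2133, 1531 to 1656 and 4400.5 to 4543 CPM. The sums followed the labels, but single markers did not all do so. Cxcr5, an FO marker, stood at 642 to 767 CPM in deficient MZ, 631 to 701 CPM in control MZ and 549.9 to 593 CPM in FO libraries, lowest in the subset it was listed for. In deficient against control MZ cells, edgeR called 4 of 6 FO markers higher and 0 lower, and 2 of 6 MZ markers higher and 1 lower, where 2.3% of all genes tested were called higher. Among the FO markers, Klf2, a transcription factor of lymphocyte quiescence and homing, stood at 139.7 to 153 CPM in deficient MZ against 33.2 to 49.2 CPM in control MZ libraries. Other cells that carry class II were scarce by their markers: the 10 dendritic cell markers summed to at most 20.1, 15.9 and 14.3 CPM, and the 10 macrophage and monocyte markers to at most 32.3, 25.2 and 31.0 CPM in the deficient MZ, control MZ and FO libraries, with Vsig4 at 0 throughout and Clec10a at 0 in the deficient MZ and FO libraries. The 7 T cell markers summed to at most 3.86, 1.24 and 1.33 CPM, with Cd3e and Cd4 at 0 in control MZ libraries. In these bulk samples, fewer cells of a type and less RNA per cell cannot be told apart.

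The promoters of these genes are shown first, because RFX and NF-Y act on elements in class II promoters. RefSeq promoters (build GRCm38.p6, 250 bases before to 50 after the annotated start) were held for 7 of the 10 genes, 8 promoters in all. In 6 of the 7 genes the letters ATTGG, the NF-Y element read on the gene's strand, lay 40 to 100 bases before the start, as in 7.7% of the 32851 promoters searched. In 3 of these 6 the letters GNNACNNATG, the core of the X element, lay 30 to 33 bases further upstream. An X core followed by ATTGG at a distance of 20 to 40 bases on the same strand was found in 38 of the 32851 promoters, or 0.116%. The 60 bases around the ATTGG are printed 5′ to 3′ on the gene's strand, with ATTGG and any GNNACNNATG in capitals.
H2-Eb1 (chr17:34305763-34305822, + strand): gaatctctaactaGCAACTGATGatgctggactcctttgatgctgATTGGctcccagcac
H2-Ob (chr17:34238803-34238862, + strand): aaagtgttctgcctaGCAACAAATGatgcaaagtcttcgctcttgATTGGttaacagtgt
H2-DMb1 (chr17:34153085-34153144, + strand): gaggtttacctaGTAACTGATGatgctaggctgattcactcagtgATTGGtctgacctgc
H2-DMb2 (chr17:34145114-34145173, + strand): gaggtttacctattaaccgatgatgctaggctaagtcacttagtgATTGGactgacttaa
H2-Oa (chr17:34092291-34092350, + strand): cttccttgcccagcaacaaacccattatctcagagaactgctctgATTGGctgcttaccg
H2-Aa (chr17:34287857-34287916, − strand): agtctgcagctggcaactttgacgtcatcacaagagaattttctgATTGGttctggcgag

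Searched on both strands, CCAAT (the same element on the other strand) was present somewhere in 37.4% of the 32851 promoters and GNNACNNATG in 9.0%, so either match alone is common. Both motifs were searched in the full promoter windows; H2-Oa also held a GNNACNNATG 140 bases before its start, and H2-DMa held an ATTGG 198 bases before its start, outside the interval used above. A match describes letters and shows no binding. The lack of a match to these fixed letters does not show that an X element is absent. The 3 genes with both matches at this spacing did not move alike: H2-Ob and H2-DMb1 were 2.84-fold and 2.05-fold lower in control MZ cells than in FO cells, and H2-Eb1 was 1.17-fold lower.

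Zfp36l1 binds AU-rich elements in 3′ untranslated regions, and its preferred heptamer TATTTAT was searched on the sense strand of the longest annotated 3′ untranslated region of each gene (GENCODE M21, GRCm38). It was present in 2 of the 10 genes, H2-Ob and H2-DMb1, with 1 match each, and in 27.5% of 20779 genes with such a region. Both sites are printed with the heptamer in capitals.
H2-Ob (chr17:34245044-34245070, + strand): taggattcttTATTTATagcatattgt
H2-DMb1 (chr17:34160072-34160098, + strand): tttgggggggTATTTATaatgaagtct

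The H2-Ob site starts at base 933 of a region of 1785 bases, and the H2-DMb1 site at base 143 of 291. Their changes in Zfp36l1-deficient cells are given with the other genes below; neither was called.

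The data show 3 things about these genes. In Zfp36l1-deficient MZ cells all 10 lay within 1.13-fold of control MZ cells on average. Of the 10, 0 were called, which is near the share of 3.76% called among all genes tested. Between the B cell subsets the genes did not move as a block: Cd74 and H2-Ab1 were higher in MZ than in FO cells, H2-Aa, H2-DMb1, H2-Oa, H2-Ob and Ciita were lower, and H2-Eb1, H2-DMa and H2-DMb2 differed by at most 1.17-fold. The ratio of H2-DM to H2-O counts was 2.29-fold higher, and the ratio of class II chain to Cd74 counts 1.86-fold lower, in control MZ cells than in FO cells.

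In deficient against control MZ cells, edgeR called 0 of the 10 genes higher and 0 lower at an adjusted p under 0.05, where it called 3.76% of the 13987 genes tested (2.3% higher and 1.46% lower). DESeq2 also called 0, and the authors' deposited table holds 0 with an adjusted p under 0.05. At an unadjusted p under 0.05 edgeR listed 1 of the 10, against 19.2% of all genes. The log2 changes ran from −0.08 to 0.18 with standard errors of 0.07 to 0.10, and their median was 0.05, beside 0.00 over all genes. The libraries of the 2 genotypes did not overlap for 2 of the 10 genes, H2-Ob and Ciita, where 11.9% of all genes tested showed no overlap.

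In control MZ against FO cells, 2 of the 10 genes were higher, 6 were lower and 2 were not called, where 81.3% of the 13843 genes tested were called (42.6% higher and 38.7% lower). The libraries did not overlap for 8 of the 10, beside 76.9% of all genes. The number of class II genes called was thus near that of genes in general, so sizes and directions are what set them apart from one another. The log2 changes ran from −1.50 to 0.86 with a median of −0.38, beside a median of 0.05 over all genes. In deficient MZ against FO cells, 3 were higher, 5 were lower and 2 were not called, beside 81.1% of 13895 genes (42.8% higher and 38.3% lower), and 7 did not overlap, beside 75.9%. The FO libraries are shared by both comparisons, so the values from each are given side by side and one does not support the other.

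**Figure D1:**
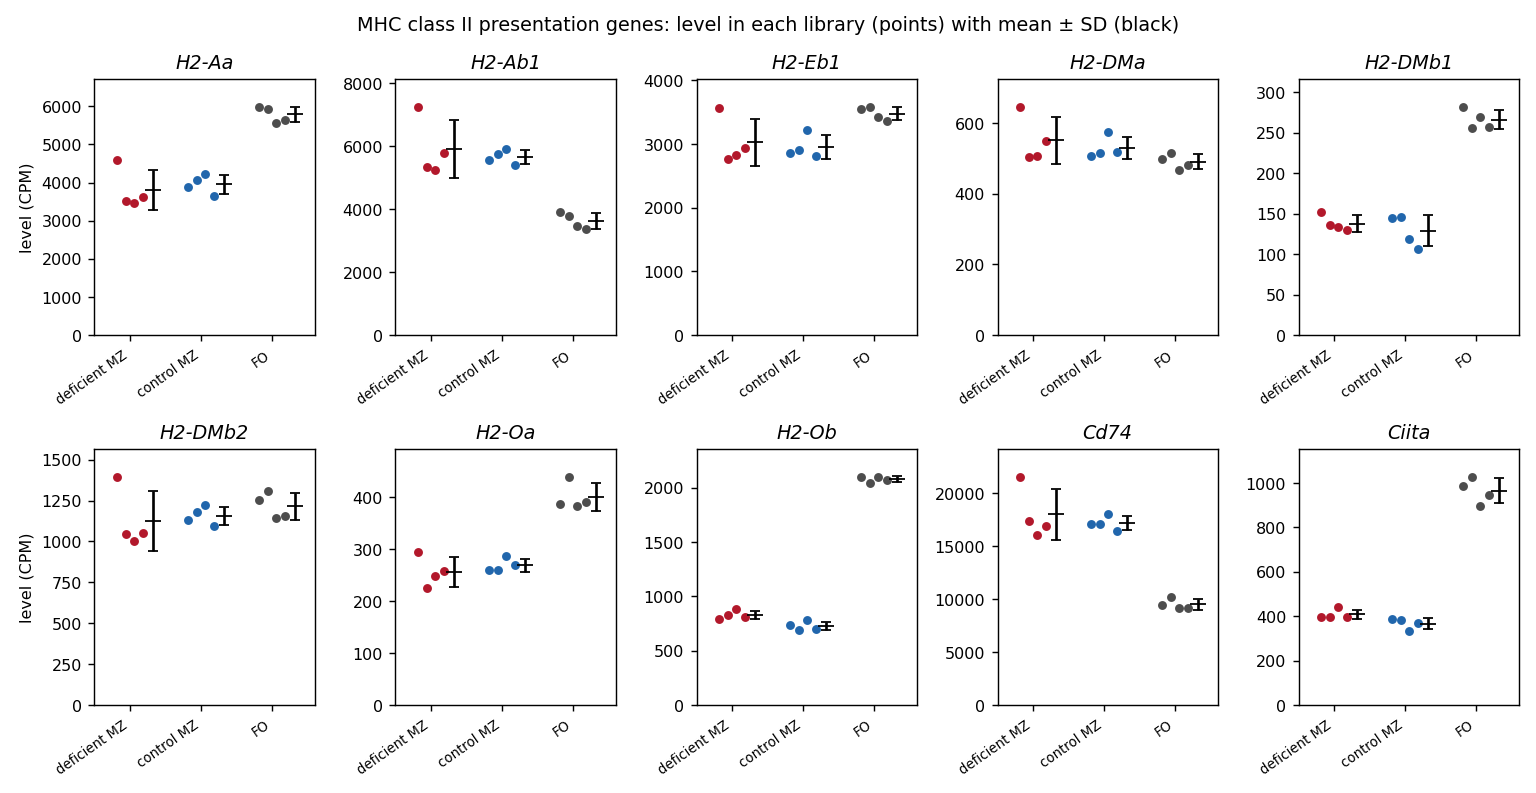
Level of each of the 10 class II genes in CPM (vertical axes, starting at 0) in every library of deficient MZ (red), control MZ (blue) and FO (grey) B cells, with the mean and SD over 4 libraries in black. Deficient and control MZ libraries overlap for 8 of the 10 genes, FO libraries stand below both for H2-Ab1 and Cd74, and above both for H2-Aa, H2-DMb1, H2-Oa, H2-Ob and Ciita.

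Ciita (chr16:10480059-10528418, + strand, GRCm38) is the master coactivator of the class II genes. Its level in replicates 1, 2, 7 and 8 of deficient MZ cells was 398, 397, 440.0 and 397 CPM, against 385, 382, 333 and 368.5 CPM in replicates 3, 4, 5 and 6 of control MZ cells and 987, 1029, 898 and 946 CPM in replicates 3, 4, 7 and 8 of FO cells. The lowest FO library, at 898 CPM, stood well above the highest MZ library, at 440.0 CPM. Ciita was 2.61-fold lower in control MZ cells than in FO cells, a log2 change of −1.38 (SE 0.07, adjusted p = 5.16e-10) by edgeR, and 2.32-fold lower in deficient MZ than in FO cells, −1.21 (SE 0.07, adjusted p = 2.52e-09). The 4 deficient MZ libraries all lay above the 4 control MZ libraries, by a log2 difference of 0.14 that was not called (edgeR adjusted p = 0.3; 95% interval 0.00 to 0.28). Of the exon bases of Ciita, 3.5% lie under exons of Dexi on the other strand, and whether counting used strand is not given.

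The H2-A molecule pairs the products of H2-Aa (chr17:34282744-34287823, − strand) and H2-Ab1 (chr17:34257689-34269419, + strand), which lie next to each other on chromosome 17. H2-Aa, the α chain, held 4584, 3523, 3469 and 3611 CPM in deficient MZ, 3877, 4060.2, 4230.5 and 3649.6 CPM in control MZ and 5993, 5928.5, 5573 and 5655 CPM in FO libraries. H2-Ab1, the β chain, held 7253, 5349, 5239.6 and 5792 CPM in deficient MZ, 5554, 5752.5, 5897 and 5415 CPM in control MZ and 3894, 3779, 3469 and 3374 CPM in FO libraries. The 2 chains of the same molecule went opposite ways between the subsets, with no overlap between MZ and FO libraries for either. H2-Aa was 1.45-fold lower in control MZ cells than in FO cells, a log2 change of −0.54 (SE 0.06, adjusted p = 4.13e-06), and 1.49-fold lower in deficient MZ cells, −0.58 (SE 0.10, adjusted p = 8.77e-05), both by edgeR. H2-Ab1 was 1.57-fold higher in control MZ than in FO cells, 0.65 (SE 0.07, adjusted p = 9.16e-07), and 1.66-fold higher in deficient MZ cells, 0.73 (SE 0.11, adjusted p = 2.61e-05). Between deficient and control MZ cells the log2 differences were −0.07 for H2-Aa (edgeR adjusted p = 0.739; 95% interval −0.25 to 0.11) and 0.05 for H2-Ab1 (adjusted p = 0.811; −0.14 to 0.24), with overlapping libraries.

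H2-Eb1 (chr17:34305867-34316674, + strand) encodes the β chain of H2-E. It stood at 3560.2, 2769.8, 2823 and 2943 CPM in deficient MZ, 2859.9, 2903, 3221 and 2814 CPM in control MZ and 3541, 3585.5, 3419 and 3358 CPM in FO libraries. The control MZ libraries all lay below the FO libraries, while deficient replicate 1 reached into the FO range. The log2 change was −0.23 (SE 0.06, adjusted p = 0.00368) in control MZ against FO cells, which was called lower, and −0.17 (SE 0.09, adjusted p = 0.0895) in deficient MZ against FO cells, which was not, by edgeR. Without deficient replicate 1 the second value was −0.27 with an adjusted p of 0.000421. The difference between deficient and control MZ cells was 0.03 (edgeR adjusted p = 0.901; 95% interval −0.14 to 0.20). The entry H2-Ea-ps, named as a pseudogene of the partner α chain, had 7 to 18 counts per deficient MZ library, 2 to 14 per control MZ library and 1 to 3 per FO library. The symbol H2-Ea had no match, so the H2-Eb1 level does not show that H2-E was formed.

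Cd74, the invariant chain, was the most abundant of the 10 genes per kb of transcript in every group. It held 21591, 17373, 16111 and 16955 CPM in deficient MZ, 17113.5, 17099.9, 18052 and 16427 CPM in control MZ and 9439, 10248, 9197 and 9147 CPM in FO libraries, and it alone made up 1.75% to 2.21%, 1.80% to 1.91% and 0.800% to 0.872% of all counts. Every MZ library lay far above every FO library. Cd74 was 1.82-fold higher in control MZ than in FO cells, a log2 change of 0.86 (SE 0.07, adjusted p = 5.66e-08), and 1.93-fold higher in deficient MZ cells, 0.95 (SE 0.10, adjusted p = 1.57e-06), both by edgeR. Between deficient and control MZ cells its log2 difference was 0.06 (edgeR adjusted p = 0.783; 95% interval −0.13 to 0.24).

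H2-DMa (chr17:34119541-34139101, + strand) encodes the α chain of the peptide editor H2-DM. It held 647, 504, 506 and 549.6 CPM in deficient MZ, 508, 516, 576 and 519 CPM in control MZ and 499.7, 515, 466 and 482 CPM in FO libraries, and all 3 groups overlapped. The log2 change was 0.12 (SE 0.06, adjusted p = 0.0606) in control MZ against FO cells, not called by edgeR, though the adjusted p was 0.0495 in the authors' deposited table. In deficient MZ against FO cells it was 0.20 (SE 0.08, adjusted p = 0.0402), called higher, but the call was lost when any of deficient replicates 1 and 8 or FO replicates 3, 4, 7 and 8 was left out (0.10 without deficient replicate 1). The difference between deficient and control MZ cells was 0.05 (edgeR adjusted p = 0.791; 95% interval −0.11 to 0.21). Of its exon bases, 10.4% lie under exons of Brd2 on the other strand.

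H2-DM has a choice of β chains from adjacent genes, H2-DMb1 (chr17:34153072-34160230, + strand) and H2-DMb2 (chr17:34143307-34151555, + strand). H2-DMb1 held 153, 136, 133 and 129.5 CPM in deficient MZ, 144, 146, 119 and 107 CPM in control MZ and 282, 256, 269.6 and 257.5 CPM in FO libraries. H2-DMb2 held 1397, 1043, 1003 and 1053 CPM in deficient MZ, 1132, 1182, 1221.5 and 1094 CPM in control MZ and 1255, 1309, 1141 and 1153 CPM in FO libraries. H2-DMb1 therefore differed between the subsets with no overlap, and H2-DMb2, the more abundant per kb, overlapped in all 3 groups. By edgeR, H2-DMb1 was 2.05-fold lower in control MZ cells than in FO cells, a log2 change of −1.03 (SE 0.09, adjusted p = 6.89e-07), and 1.89-fold lower in deficient MZ cells, −0.92 (SE 0.07, adjusted p = 2.3e-08). The H2-DMb2 values were −0.06 (SE 0.06, adjusted p = 0.397) in control MZ and −0.08 (SE 0.10, adjusted p = 0.464) in deficient MZ against FO cells, neither called; without deficient replicate 1 the second was −0.22 with an adjusted p of 0.0058. Between deficient and control MZ cells the differences were 0.08 for H2-DMb1 (95% interval −0.11 to 0.28) and −0.05 for H2-DMb2 (−0.24 to 0.13). These genes are near-identical copies in places: 13.7% of the 100-base windows of the H2-DMb1 transcript and 12.9% of those of H2-DMb2 occur in the other. Their separate levels are therefore uncertain, by an amount that was not measured. For H2-DMb1, the far less abundant gene, it can exceed the share of its windows. The part of this in the H2-DMb1 difference was not tested.

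H2-O, the B cell restraint on H2-DM, is built from H2-Oa (chr17:34092340-34095234, + strand) and H2-Ob (chr17:34238903-34254414, + strand). H2-Oa, the α chain, held 295, 224.5, 248 and 257 CPM in deficient MZ, 259.5, 259.9, 286 and 268.5 CPM in control MZ and 386, 439.5, 383 and 391 CPM in FO libraries. H2-Ob, the β chain, held 794.5, 829.6, 882.5 and 809.8 CPM in deficient MZ, 738.5, 695, 779.6 and 697 CPM in control MZ and 2100.5, 2041, 2103 and 2069 CPM in FO libraries. Both chains were lower in every MZ than in every FO library. H2-Ob was 2.84-fold lower in control MZ cells than in FO cells, a log2 change of −1.50 (SE 0.06, adjusted p = 3.18e-11) by edgeR, and 2.46-fold lower in deficient MZ cells, −1.30 (SE 0.07, adjusted p = 8e-10). H2-Oa was 1.48-fold lower in control MZ cells than in FO cells, −0.56 (SE 0.06, adjusted p = 8.03e-07), and 1.53-fold lower in deficient MZ cells, −0.61 (SE 0.08, adjusted p = 1.3e-05).

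H2-Ob also gave the widest difference between deficient and control MZ cells among the 10 genes. All 4 deficient libraries lay above all 4 control libraries, by a log2 difference of 0.18 (95% interval 0.05 to 0.31), with an unadjusted p of 0.0181 and an adjusted p of 0.159 by edgeR. The adjusted p was 0.0544 by DESeq2 and 0.0539 in the authors' deposited table, and ran from 0.0919 to 0.343 in edgeR with each library left out. H2-Oa differed by −0.08 (edgeR adjusted p = 0.638; 95% interval −0.23 to 0.08), with overlapping libraries. Of the 6 FO markers, 4 were called higher in deficient MZ cells, and their part in the values of H2-Ob and Ciita was not tested. For H2-Oa, 22.8% of exon bases lie under exons of BC051537 on the other strand and 13.7% of its 100-base windows occur in that gene's transcripts, so its level is uncertain.

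**Figure D2:**
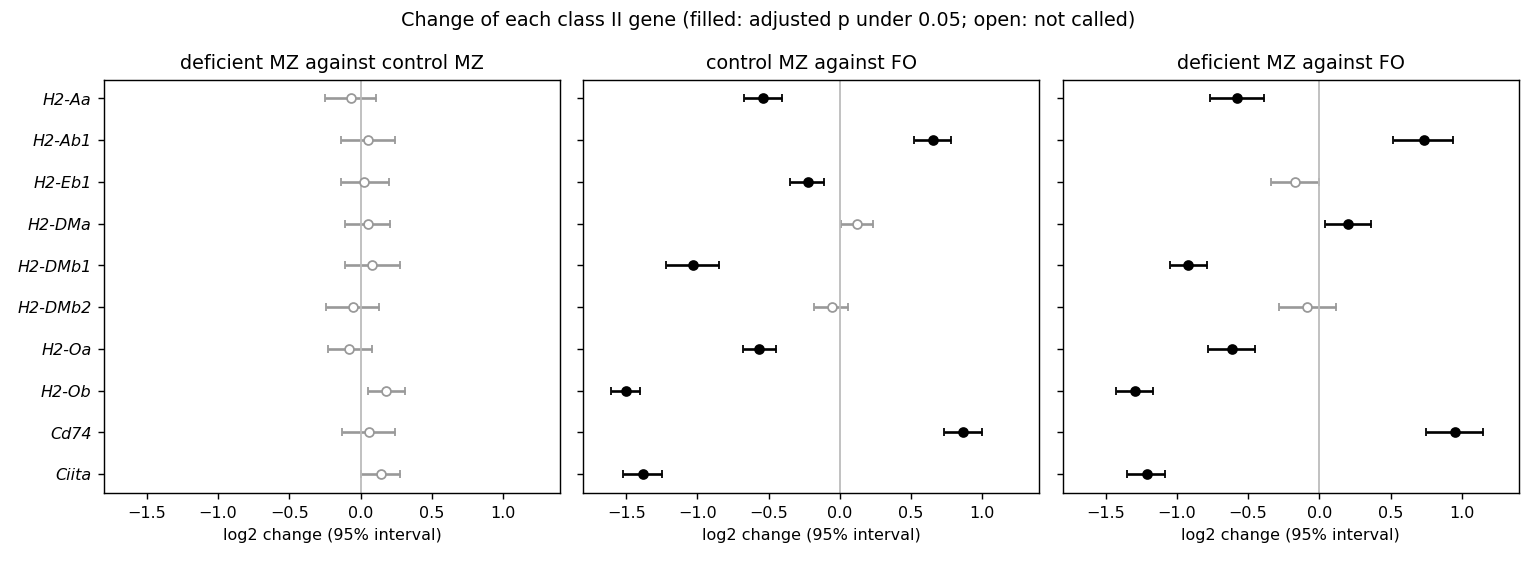
Log2 change of each class II gene (horizontal axes) in deficient against control MZ, control MZ against FO and deficient MZ against FO B cells. Bars are 95% intervals from a normal approximation, with the SE taken from the edgeR F statistic. Filled points had an adjusted p under 0.05. All 10 points lie between −0.08 and 0.18 in the left panel, while in the other panels H2-Ab1 and Cd74 lie to the right of 0 and Ciita, H2-Ob and H2-DMb1 farthest to the left.

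To set the genes against each other, levels were divided by the length of the longest coding transcript (CPM per kb). Cd74 came first in all groups, at 12771.5 ± 1735 in deficient MZ, 12179.5 ± 474 in control MZ and 6743 ± 361 CPM per kb in FO cells. In both MZ groups H2-Ab1 came second, at 4875 ± 765 in deficient and 4666 ± 175.5 in control cells, and H2-Aa followed it, at 3366 ± 468 and 3506 ± 221. In FO cells H2-Aa stood above H2-Ab1, at 5131 ± 181 and 2994 ± 204 CPM per kb. H2-Eb1 followed in each group, at 1812 ± 219, 1767 ± 110.5 and 2083 ± 63.2, and then H2-DMb2, at 758 ± 124, 781 ± 37.6 and 819 ± 54.7 CPM per kb in deficient MZ, control MZ and FO cells. No neighbours down to H2-DMb2 overlapped in their library values in either MZ group.

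Farther down, the order was closer. H2-Ob, H2-DMa and H2-Oa stood at 310.5 ± 14.4, 275 ± 33.4 and 235 ± 26.8 CPM per kb in deficient MZ cells and 272 ± 15.1, 264 ± 15.6 and 247 ± 11.4 in control MZ cells, with neighbours overlapping. In FO cells H2-Ob stood higher in the order, at 778 ± 11 CPM per kb, where its libraries overlapped those of H2-DMb2, and H2-Oa (368 ± 24.4) stood above H2-DMa (245 ± 10.6). H2-DMb1 and Ciita came last, at 98.1 ± 7.29 and 67.9 ± 3.55 in deficient MZ, 91.9 ± 13.8 and 61.1 ± 3.95 in control MZ, and 189.7 ± 8.71 and 161 ± 9.34 CPM per kb in FO cells. The order depends on the length used: with the union of all annotated exons, chosen after seeing the data, H2-Aa fell behind H2-Eb1 in all 3 groups. On that length H2-Oa stood above H2-DMa and H2-Ob in both MZ groups, at 182 against 160.0 and 154 CPM per kb in deficient and 191 against 154 and 135 CPM per kb in control cells. In FO cells H2-Ab1 (1413 CPM per kb) then stood behind H2-Eb1 (1788) and H2-Aa (1524), and H2-DMa (142) below H2-DMb1 (158.5). The order among these genes is therefore not settled, while Cd74 came first and Ciita last on that length in all 3 groups.

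Together the 10 genes took 4.16%, 3.42%, 3.35% and 3.51% of all counts in deficient MZ, 3.58%, 3.64%, 3.67% and 3.43% in control MZ and 2.45%, 2.48%, 2.34% and 2.35% in FO libraries. Deficient replicate 1 stood apart in its group. It held 40671 CPM over the 10 genes, against 30855 to 32497 in the other 3 deficient libraries, and it was the highest of the 4 for 8 of the 10. Its dendritic cell markers summed to 20.1 CPM and its macrophage and monocyte markers to 32.3 CPM, the highest of its group in both. Deficient replicate 7, lowest of the group over the 10 genes at 30855 CPM, had sums of 19.3 and 24.1 CPM. The part of such cells in the levels of deficient replicate 1 was not tested. Control replicate 5 was likewise highest for 8 of the 10 in its group, with a smaller lead (34716 against 31360 to 32996 CPM).

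Library size cancels in a ratio of counts within a library, and the balance of editor to restraint was compared in this way. The ratio of H2-DM counts (H2-DMa, H2-DMb1 and H2-DMb2) to H2-O counts (H2-Oa and H2-Ob) was 2.02, 1.60, 1.45 and 1.62 in deficient MZ, 1.79, 1.93, 1.80 and 1.78 in control MZ and 0.819, 0.839, 0.755 and 0.769 in FO libraries. It lay above 1 in every MZ library and below 1 in every FO library. The counts are not per length, so only differences between groups were compared. Kit, read layout and transcript length can act on single genes and need not cancel in a ratio. Their part in the differences between MZ and FO cells was not tested. Most H2-O counts were H2-Ob, with H2-Oa over H2-Ob at 0.193 on average in FO and 0.369 in control MZ cells, so H2-Ob weighs most in the summed ratio. The edgeR log2 changes in control MZ against FO cells were −1.50 for H2-Ob and −0.56 for H2-Oa. They were 0.12 for H2-DMa, −1.03 for H2-DMb1 and −0.06 for H2-DMb2. The ratio of H2-DM to H2-O counts was 2.29-fold higher in control MZ than in FO cells, a log2 difference of 1.20, and 2.09-fold higher in deficient MZ than in FO cells, 1.06. Each gave p = 0.0286 in a two-sided exact permutation test, the smallest that 4 against 4 libraries allow, and 0.0429 after Benjamini-Hochberg adjustment over the 6 ratio tests. The 2 genotypes of MZ cells differed by −0.14 (exact permutation p = 0.314, adjusted 0.314), and this sign was not kept by the α chains alone, H2-DMa over H2-Oa, which gave 0.13 (exact permutation p = 0.0286, not adjusted). The β chains alone, H2-DMb1 and H2-DMb2 over H2-Ob, gave −0.23 (exact permutation p = 0.143, not adjusted).

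The ratio of class II chain counts (H2-Aa, H2-Ab1 and H2-Eb1) to Cd74 counts moved the other way. It was 0.713, 0.670, 0.716 and 0.728 in deficient MZ, 0.718, 0.744, 0.739 and 0.723 in control MZ and 1.42, 1.30, 1.35 and 1.35 in FO libraries, with no overlap between MZ and FO. The log2 difference was −0.89 in control MZ against FO cells (1.86-fold lower) and −0.94 in deficient MZ against FO cells (1.92-fold lower), each with an exact permutation p of 0.0286 and an adjusted p of 0.0429. Deficient and control MZ cells differed by −0.05 (exact permutation p = 0.114, adjusted 0.137).

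Ratios of chains within 1 molecule were added after the data had been seen and carry no test. H2-Aa over H2-Ab1 counts ran from 0.623 to 0.662 in deficient MZ, 0.674 to 0.717 in control MZ and 1.54 to 1.68 in FO libraries, so the 3 groups did not overlap. H2-DMb1 over H2-DMb2 ran from 0.109 to 0.133, 0.0974 to 0.127 and 0.196 to 0.236, and H2-Oa over H2-Ob from 0.271 to 0.371, 0.351 to 0.385 and 0.182 to 0.215 in the deficient MZ, control MZ and FO libraries. In these last 2 ratios the MZ genotypes overlapped and FO libraries stood apart.

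**Figure D3:**
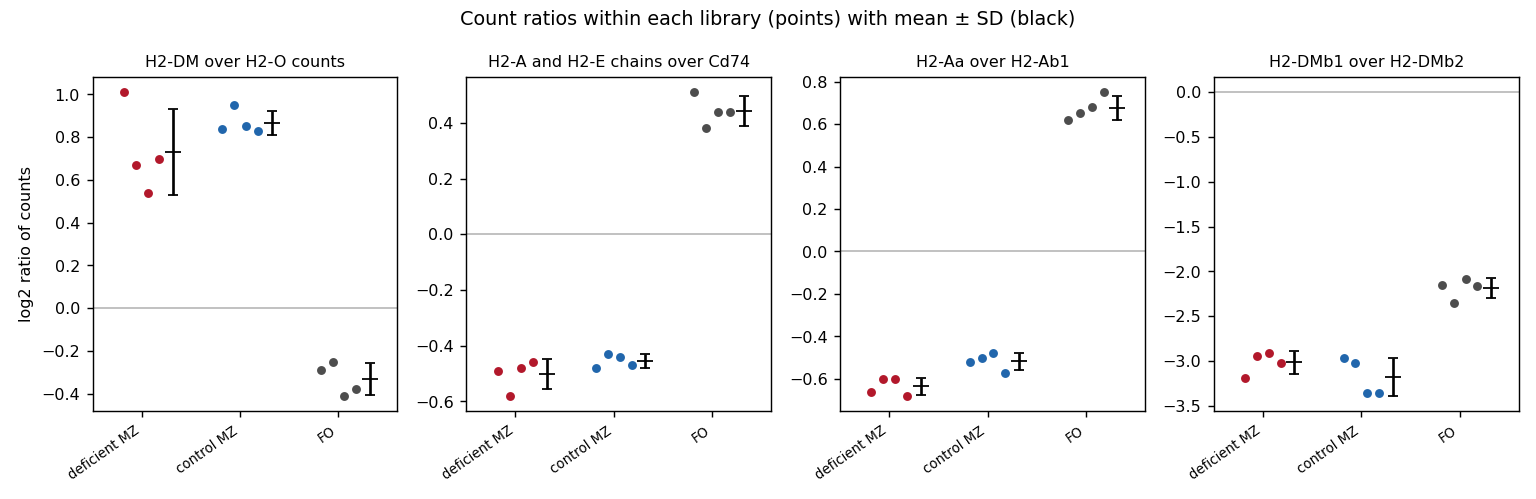
Log2 ratio of counts within each library (vertical axes) for H2-DM over H2-O, class II chains over Cd74, H2-Aa over H2-Ab1 and H2-DMb1 over H2-DMb2, in deficient MZ (red), control MZ (blue) and FO (grey) B cells, with the mean and SD over 4 libraries in black; the horizontal line marks equal counts. In each panel all 8 MZ libraries lie on one side of the 4 FO libraries, and the deficient and control MZ libraries are close to each other.

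MZ and FO libraries also differed by transcript length across all genes, a description added after the data had been seen. In control MZ against FO cells the median log2 change was 0.31, 0.20, −0.01 and −0.49 in 4 equal groups of genes of rising transcript length. Ciita, with 6007 bases, lies in the longest group, of which 62.1% of genes were called lower. H2-DMa (2005 bases) and H2-Ob (2670 bases) lie in the second group, and the other 7 genes in the shortest. Cd74 and H2-Ab1 thus moved in the direction of their group's median and H2-Aa, H2-Eb1, H2-Oa, H2-DMb1 and H2-Ob against it, and the part of length in the Ciita difference was not tested. In deficient against control MZ cells the medians of the 4 length groups were 0.07, 0.00, −0.04 and −0.07.

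Genes that act with the class II set were read from 7 lists. The promoter factors are the RFX, NF-Y and CREB proteins and the coactivators Ciita works with. In deficient against control MZ cells 1 of 16 was higher and 0 lower (list median −0.05): Hdac1, a histone deacetylase, held 316, 253, 252 and 262.5 CPM in deficient and 207, 209.8, 240.2 and 211 CPM in control MZ libraries (0.31 (SE 0.08, adjusted p = 0.0465), edgeR), without overlap, and lost its call when any of deficient replicates 1 and 8 or control replicates 3, 4 and 6 was left out. In control MZ against FO cells 6 were higher and 9 lower (median −0.48, beside 0.05 over all genes). Nfya, a subunit of NF-Y, held 7.38, 7.88, 6.62 and 7.33 CPM in deficient MZ, 8.48, 7.39, 7.31 and 6.93 CPM in control MZ and 137, 131, 125 and 129 CPM in FO libraries, a log2 change of −4.10 (SE 0.07, adjusted p = 5.69e-14) in control MZ against FO cells by edgeR. Rfx5 and Creb1, which bind the X element, were lower as well (−2.16 and −1.77), and Rfxap, the partner of Rfx5 in the RFX complex, was higher (1.66). In deficient MZ against FO cells 6 were again higher and 9 lower (median −0.36), with Nfya at −4.13, Rfx5 at −2.14, Creb1 at −1.85 and Rfxap at 1.61.

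Among 20 regulators that act on Ciita, 1 was higher and 2 were lower in deficient against control MZ cells (median −0.06). Irf4, a factor of B cell activation and plasma cell differentiation, held 116, 130.0, 131 and 114 CPM in deficient and 171.5, 170.2, 177 and 179.6 CPM in control MZ libraries, a log2 change of −0.52 (SE 0.07, adjusted p = 0.000744). Irf8, its relative, held 745, 636.5, 680.5 and 655 CPM in deficient and 539, 495.5, 491 and 569 CPM in control MZ libraries, 0.37 (SE 0.08, adjusted p = 0.0146), a call that was lost without control replicate 4, and the interferon-γ receptor chain Ifngr1 was lower (−0.36 (SE 0.06, adjusted p = 0.00351)), all by edgeR. None of these 3 had overlapping libraries between the genotypes. Against FO cells, 4 regulators were higher and 12 lower in control MZ (median −0.29), and 6 were higher and 13 lower in deficient MZ cells (median −0.51). In control MZ cells Bcl6, a transcriptional repressor that the germinal centre programme needs, was at −2.69, and Prdm1, the plasma cell repressor that silences Ciita, at 2.69. In deficient MZ cells Bcl6 was at −2.91, Bach2 at −2.71 and Pax5 at −2.59 on the log2 scale. Genes were named by the smallest p in each comparison, so a gene named for 1 genotype is not particular to it. Mean levels in deficient MZ, control MZ and FO cells were 46.0, 34.1 and 306.6 CPM for Bach2. They were 43.4, 42.5 and 267 CPM for Pax5 and 7.66, 9.80 and 1.52 CPM for Prdm1.

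The next list holds mainly endosomal proteases that cut CD74 and antigen, with their partners. Of its genes, 2 of 16 were higher and 0 lower in deficient against control MZ cells (median 0.04): the cathepsin Ctsh (0.30 (SE 0.07, adjusted p = 0.0319)) and Asprv1 (2.78 (SE 0.52, adjusted p = 0.00949)), a retroviral-like aspartic protease known from the epidermis, at under 2 CPM in every library. The Ctsh call was lost without deficient replicate 8 or control replicate 3, 4 or 6. In control MZ against FO cells 8 of 15 were higher and 4 lower (median 0.23), and in deficient MZ against FO cells 9 of 16 were higher and 5 lower (median 0.30). The protease Sppl2a, which removes the last membrane-bound fragment of CD74, held 65.1, 67.4, 61.7 and 58.7 CPM in deficient MZ, 67.6, 68.8, 72.5 and 62.4 CPM in control MZ and 202, 197, 201 and 203 CPM in FO libraries. It was lower by edgeR at −1.55 (SE 0.05, adjusted p = 1.17e-11) in control MZ and −1.64 (SE 0.06, adjusted p = 2.78e-11) in deficient MZ cells against FO. Cathepsin B (Ctsb) was higher, at 1.86 in control MZ and 1.73 in deficient MZ cells, and Ctsz at 1.35 and 1.55.

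Genes of class II traffic and turnover gave 2 higher and 1 lower of 25 in deficient against control MZ cells (median −0.02). The tetraspanin Cd81 held 1005, 829, 811 and 1159.7 CPM in deficient and 445, 481, 562 and 506 CPM in control MZ libraries (0.92 (SE 0.11, adjusted p = 0.000245), edgeR), with Atp6v1a, a proton pump subunit, at 0.35 and Mcoln1, a lysosomal channel, at −0.53. The Atp6v1a call was lost without deficient replicate 7, the Mcoln1 call without deficient replicate 2, and both without control replicate 3, 4 or 6. Against FO cells 12 of 26 were higher and 9 lower in control MZ (median 0.15), and 14 of 27 were higher and 7 lower in deficient MZ (median 0.16). March1, the ubiquitin ligase that directs class II molecules to degradation, was lower, at 125, 158, 149 and 127 CPM in deficient MZ, 124, 133, 131 and 134.5 CPM in control MZ and 538, 470.4, 506 and 531 CPM in FO libraries, with log2 changes of −1.84 in deficient MZ and −1.96 in control MZ against FO cells.

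Among the other genes of the class II region, 0 of 6 were called in deficient against control MZ cells by edgeR, and 1 of 5 was higher and 4 lower against FO cells in both control MZ (median −0.94) and deficient MZ (median −1.16). H2-Eb2, a second H2-E β chain gene, held 49.3, 43.2, 50.8 and 42.5 CPM in deficient MZ, 52.6, 50, 55.2 and 39.3 CPM in control MZ and 423, 516.5, 373.5 and 426 CPM in FO libraries, log2 changes of −3.20 and −3.13 against FO cells. This is a wider gap than that of H2-Eb1 beside it. The butyrophilin-like gene Btnl2 was at −2.01 in control MZ and −1.75 in deficient MZ cells against FO. The class I presentation list, read for contrast, gave 1 of 19 higher in deficient against control MZ cells (H2-T23, 0.39 (SE 0.09, adjusted p = 0.02); edgeR; median 0.13), a call lost without deficient replicate 8 or control replicate 3, 4 or 5. Against FO cells it gave 9 higher and 4 lower in control MZ (median 0.18) and 12 higher and 3 lower in deficient MZ (median 0.34), with the class I heavy chain H2-D1 at 0.95 and 1.11. The list for T cell help held mainly ligands and receptors, and also Hvcn1, which is neither. Of its 18 genes tested, edgeR called 0 in deficient against control MZ cells (median −0.05), 7 higher and 10 lower in control MZ against FO (median −0.33) and 7 higher and 11 lower in deficient MZ against FO (median −0.42), with the costimulatory ligand Icosl at −1.37 and −1.43. These counts stand beside the shares of all genes called given above.

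**Figure D4:**
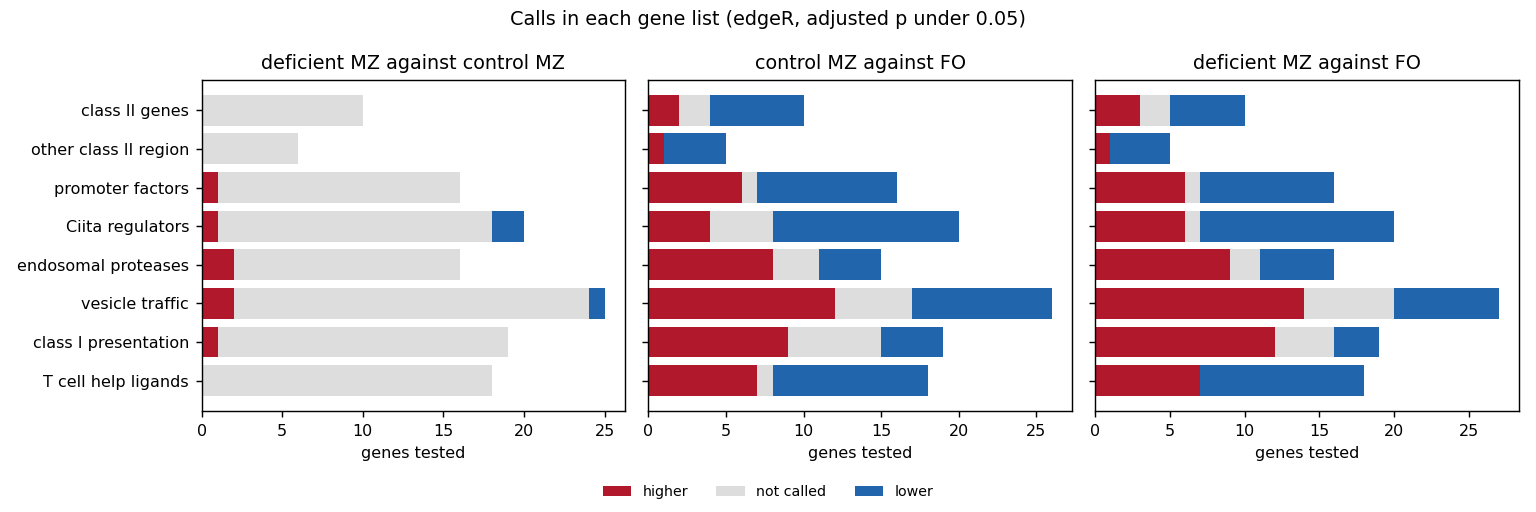
Number of genes tested in each list (horizontal axes) that were higher (red), not called (grey) or lower (blue) by edgeR at an adjusted p under 0.05, in deficient MZ against control MZ, control MZ against FO and deficient MZ against FO B cells. The top bar holds the 10 class II genes, with 0 calls in the left panel, 2 higher and 6 lower in the middle panel and 3 higher and 5 lower in the right panel.

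Likeness between genes was measured as the root mean square difference of centred log2 CPM over the 12 libraries, among 8419 genes; it describes these 12 libraries, which differ mainly by subset and kit. Outside the set, the genes most like Ciita were Arhgap4 (0.082), Rnf44 (0.083) and Arhgap45 (0.086). Within it, H2-Ob was nearest to Ciita (0.109), followed by H2-DMb1 (0.197), and Cd74 was farthest (1.048). The genes most like H2-Ab1 were Capzb (0.053), Sf3b5 (0.054) and Mrpl23 (0.060), and within the set Cd74 was nearest (0.114), followed by H2-DMa (0.255), with H2-Ob farthest (0.997). The 10 genes thus spread between a pair highest in MZ libraries, H2-Ab1 and Cd74, and a group highest in FO libraries led by Ciita, H2-Ob and H2-DMb1.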

How the data were processed

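RNA sequencing covered 12 libraries of sorted mouse B cells, grouped by genotype and cell type in the labels. The submitters' processing notes name build GRCm38 and the tools HTSeq, DESeq2 1.10.1, TopHat2 2.0.12 and Trim Galore, without their order; which annotation release, counting mode and strand setting they used is not given. The authors deposited raw counts per Ensembl gene, as whole numbers with 1 column per library, and DESeq2 tables, from which their log2 fold changes and their adjusted p-values were copied. Of 43629 gene IDs, 42548 matched GENCODE M21 (GRCm38), and 19338 had no count.

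Counts were tested with edgeR 4.0.16 (R 4.3.3; quasi-likelihood, robust, TMM scaling, default filter on low counts), each comparison on its own 8 libraries, with Benjamini-Hochberg adjustment over all genes tested and calls at an adjusted p under 0.05. The SE is the size of the log2 change divided by the square root of edgeR's F statistic. The 95% intervals apply the normal distribution to it, so they are narrower than the edgeR test allows for with so few libraries. Ratios had 0.5 added to each sum of counts and were tested with two-sided exact permutation tests. DESeq2 1.42.0, other scalings, no filter, 1 fit of all libraries and leaving out each library were tried. No 2 library columns were identical (0), and all replicate pairs differed beyond sampling noise (chi-square per gene between 5.45 and 44.5). FO replicates 7 and 8 (5.45) and control MZ replicates 3 and 4 (6.11) were closest, and the next lowest pair was deficient MZ replicates 7 and 8 (11.8). The labels do not say whether libraries within a group were prepared in pairs, and the tests treat them as separate. Depth was 28938453 to 40664963 counts per library.

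The members and lists were chosen with earlier results of these data known. Named genes are all 10 members, up to 4 called genes with the smallest p from each of the 7 pathway lists in each comparison, the 3 genes most like Ciita and H2-Ab1 (mean log2 CPM of at least 3), and Zfp36l1. Some genes that qualified are not named. Of 182 list symbols 4 had no match. Tap1 stood in both the traffic and the class I list, and Creb1 in both the promoter factor and the Ciita regulator list.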

Additional observations from a re-analysis of the deposited data

Results flagged for a closer look

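Within a group of 4 libraries, 6 of the 36 sets of values examined had 1 library far from the others. Chance gives about 1 in 20 for a single set. These sets share libraries and genes, so the count cannot be read as an excess. H2-Aa in deficient MZ replicate 1 stood at 4584 CPM, above 3469 to 3611 CPM in the other 3 libraries. H2-DMb2 in the same library stood at 1397 CPM, above 1003 to 1053 CPM. Ciita in deficient MZ replicate 7 stood at 440.0 CPM, above 397 to 398 CPM. H2-DMa in control MZ replicate 5 stood at 576 CPM, above 508 to 519 CPM, and the log2 ratio of H2-DM to H2-O counts in control MZ replicate 4 was 0.95, above 0.83 to 0.85. H2-Oa in FO replicate 4 stood at 439.5 CPM, above 383 to 391 CPM. No cause of these values was tested.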

How the results depend on the processing

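In deficient against control MZ cells the class II genes gave 0 calls under every alternative run, while the count over all genes (526) was 1033 with DESeq2, 790 in 1 fit of all 12 libraries and 257 to 506 with 1 library left out (299 without deficient replicate 8, 309, 257 and 311 without control replicates 3, 4 and 6). The sign of small differences was not stable: with 1 library left out the log2 values ran from −0.06 to 0.11 for H2-Ab1, −0.06 to 0.07 for H2-Eb1, −0.03 to 0.10 for H2-DMa and −0.04 to 0.11 for Cd74, each negative only without deficient replicate 1. The log2 difference in H2-DM to H2-O ratio was 0.13 from the α chains alone and −0.23 (exact permutation p = 0.143) from the β chains alone, and ran from −0.23 to −0.07 with 1 library left out (exact permutation p = 0.0286 without deficient replicate 1); that in class II to Cd74 ratio ran from −0.06 to −0.02 (exact permutation p = 0.0286 without deficient replicate 8). With DESeq2, 3 Ciita regulators, 4 proteases and 5 traffic genes were higher, against 1, 2 and 2 with edgeR.

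Against FO cells, the direction of all 10 genes was kept under every alternative run. Control MZ gave 2 to 3 higher and 6 lower, and deficient MZ gave 2 to 3 higher and 5 to 7 lower, the changes being in H2-Eb1, H2-DMa and H2-DMb2. Replicate numbers 3 and 4 are shared by control MZ and FO libraries, and 7 and 8 by deficient MZ and FO libraries, but the genotypes differ and the deviations of same-numbered libraries correlated at −0.06, −0.14, 0.25 and −0.02. With the number as a block on those libraries, control MZ gave 2 higher and 6 lower (10204 genes called in all) and deficient MZ 3 higher and 7 lower (11323); without the block the same libraries gave 10599 and 11439, a setting chosen after seeing the data. No paired analysis was possible between deficient and control MZ cells because they share no replicate number.

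With 4 libraries per group, the 95% intervals in deficient against control MZ cells ran at most from −0.25 to 0.31 on the log2 scale. They rest on a normal approximation, so the precision reached is somewhat less than they show. Levels of H2-DMb1, H2-DMb2 and H2-Oa rest partly on shared sequence. The labels differ on the kit of the FO libraries.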
